A study of Homo sapiens with 6 samples.

Results

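A set of 10 genes that mark monocytes and macrophages, CSF1R, CD14, CD163, TYROBP, FCER1G, MS4A7, MS4A6A, CD68, LYZ and CYBB, was followed in a B lymphoma line in which the transcription factor IRF4 was raised. They are 10 of the 23459 gene rows of the count table and were matched by Entrez gene identifier. They were chosen with their counts and fold changes in this same contrast in view, that is, selected on them, so their differences between the groups are given as a description, and support nothing. The cells were Raji, an established human Burkitt's lymphoma line with features of germinal centre B cells, kept as a bulk culture. All libraries came from cells infected for 5 days with a lentivirus. Puromycin, at 3 µg/ml, then selected integrations over 7 days. The 3 control libraries carried the empty vector and the 3 IRF4-overexpressing libraries carried human IRF4 cDNA. Neither separate infections nor separate cultures are named for the replicates, so the spread between libraries may be technical.

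Mononuclear phagocytes live on signals through the receptor encoded by CSF1R, sense bacterial lipopolysaccharide with CD14, and relay signals from many activating receptors through the small adaptors encoded by TYROBP and FCER1G. They kill with lysozyme and with the superoxide made by the NADPH oxidase, whose catalytic subunit is encoded by CYBB. The lineage factor PU.1 drives many of these genes, and it can pair on DNA with IRF8 or IRF4. B cells also use PU.1, IRF8 and the NADPH oxidase, so a gene of this set is not by itself proof of a myeloid cell.

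Counts for IRF4 were 41, 37 and 50 in control and 5162, 4462 and 6054 in IRF4-overexpressing replicates 1, 2 and 3, which fits the labels. Libraries held 27681979 to 46210702 counts. The summed level of 10 B cell markers in CPM (counts per 1000000 counts of a library) was 2901 to 3064 in control and 3030 to 3103 CPM with IRF4 raised. The neutrophil, dendritic, T, NK, epithelial, mesenchymal and erythroid lists each summed to at most 4.16 CPM in every library. MPO, ELANE, S100A9, CLEC9A, CD2, CD8A, NCAM1, EPCAM, COL1A2 and HBB had 0 counts in all 6. They were named because of that, and every list but the erythroid one also held markers with counts. The mesenchymal sum was 0.598 to 1.12 CPM in control and 1.67 to 4.16 CPM with IRF4 raised. The epithelial sum, at 0.0996 to 0.274 against 0.32 to 0.837 CPM, and the T cell sum were also higher without overlap. The libraries also differ within the groups along an axis that holds 74.3% of the variance around the group means. Control replicate 1 and IRF4-overexpressing replicates 2 and 3 lie on one side, and the other 3 libraries on the other.

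The upstream sequences of 4 of these genes are shown because they carry the letters to which PU.1 and its IRF partners are known to bind. They come from RefSeq on GRCh38.p14, a later build than the hg19 listed for the counts. RefSeq starts were matched for 9 of the 10 genes, all but LYZ. Each run is the 250 bases before a start, 5′ to 3′ on the gene's own strand. Capitals mark matches, searched on both strands, to the following letters. They are GAGGAA, a PU.1 core, the ETS-IRF composite (GGAA, any pair of bases, then GAAA), and the interferon response pair (GAAA, any pair of bases, then GAAA). MS4A7 (chr11:60378282-60378531, plus strand), CSF1R at the downstream of its 2 starts (chr5:150086555-150086804, minus strand), CYBB (chrX:37779809-37780058, plus strand) and CD68 (chr17:7579388-7579637, plus strand) read:
MS4A7: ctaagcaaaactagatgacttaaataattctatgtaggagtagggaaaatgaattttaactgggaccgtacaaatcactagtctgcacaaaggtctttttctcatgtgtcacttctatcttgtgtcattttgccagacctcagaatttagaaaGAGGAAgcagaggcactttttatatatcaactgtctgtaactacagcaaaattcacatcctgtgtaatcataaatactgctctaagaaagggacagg
CSF1R: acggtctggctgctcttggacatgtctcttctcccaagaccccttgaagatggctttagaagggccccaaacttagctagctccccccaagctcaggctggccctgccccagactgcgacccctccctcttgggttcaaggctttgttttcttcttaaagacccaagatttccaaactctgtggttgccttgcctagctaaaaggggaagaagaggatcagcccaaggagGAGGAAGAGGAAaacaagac
CYBB: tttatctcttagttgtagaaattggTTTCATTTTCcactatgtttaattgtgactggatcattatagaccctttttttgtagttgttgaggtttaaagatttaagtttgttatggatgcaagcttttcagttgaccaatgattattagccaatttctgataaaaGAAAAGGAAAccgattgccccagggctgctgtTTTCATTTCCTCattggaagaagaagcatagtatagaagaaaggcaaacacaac
CD68: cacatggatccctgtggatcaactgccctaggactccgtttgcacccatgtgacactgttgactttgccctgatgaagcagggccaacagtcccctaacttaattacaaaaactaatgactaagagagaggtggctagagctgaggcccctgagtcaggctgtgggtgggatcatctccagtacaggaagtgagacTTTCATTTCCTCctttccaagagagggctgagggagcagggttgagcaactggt

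CYBB and CD68 both hold the ETS-IRF composite on the reverse strand at 54 to 45 bases before the start, where it overlaps a GAGGAA. This composite is in 2.41% of 35116 windows of the same length. GAGGAA was found in all 4 windows, and is in 23.6% of all windows. The 4 windows were shown because they hold such letters, so they cannot be compared with the shares of all windows. CSF1R has it in tandem at 20 to 15 and 14 to 9 bases before the downstream start, and MS4A7 has it once, at 97 to 92. CYBB also holds the interferon response pair at 225 to 216 and at 86 to 77 bases before its start, which 3.02% of windows do. Of the other members, CD163 holds the interferon response pair and GAGGAA. TYROBP and CD14 hold GAGGAA, as does MS4A6A at only some of its 4 starts. FCER1G, the remaining starts of MS4A6A and the upstream start of CSF1R have none of these letters in their windows. The 2 starts of CSF1R lie 26811 bases apart. The octamer ATGCAAAT, in 1.63% of windows, was in none of the members' windows. A match is a description of letters, not of a bound site.

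The set as a whole was weak, apart from 1 gene. CYBB made up 95.5% to 96.0% of the members' counts in control libraries and 91.6% to 93.8% with IRF4 raised. The other 8 genes with any count summed to 196, 132 and 182 counts in control, and to 396, 323 and 422 in IRF4-overexpressing replicates 1, 2 and 3. On the CPM scale these sums were 4.88, 4.91 and 4.98 against 11.5, 8.72 and 8.74, so the groups did not overlap. Most of that difference lay in CSF1R and MS4A7. Only 6 members passed the filter on low counts, and 4 (CD14, TYROBP, CD163 and MS4A6A) did not. In edgeR's quasi-likelihood test, 1 of the 6, MS4A7, was called higher at an adjusted p under 0.05, and 0 were called lower. Over all 12079 genes tested, 2.98% were called higher and 0.182% lower, 3.16% together. At an unadjusted p under 0.05, 3 members were higher and 0 lower, DESeq2 called 2 and 0, and limma-voom 1 and 0. Nothing is read from these counts, since the contrast was known when the genes were chosen. The median log2 fold change was 0.21 for the 6 members and 0.01 for all genes tested.

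**Figure D1:**
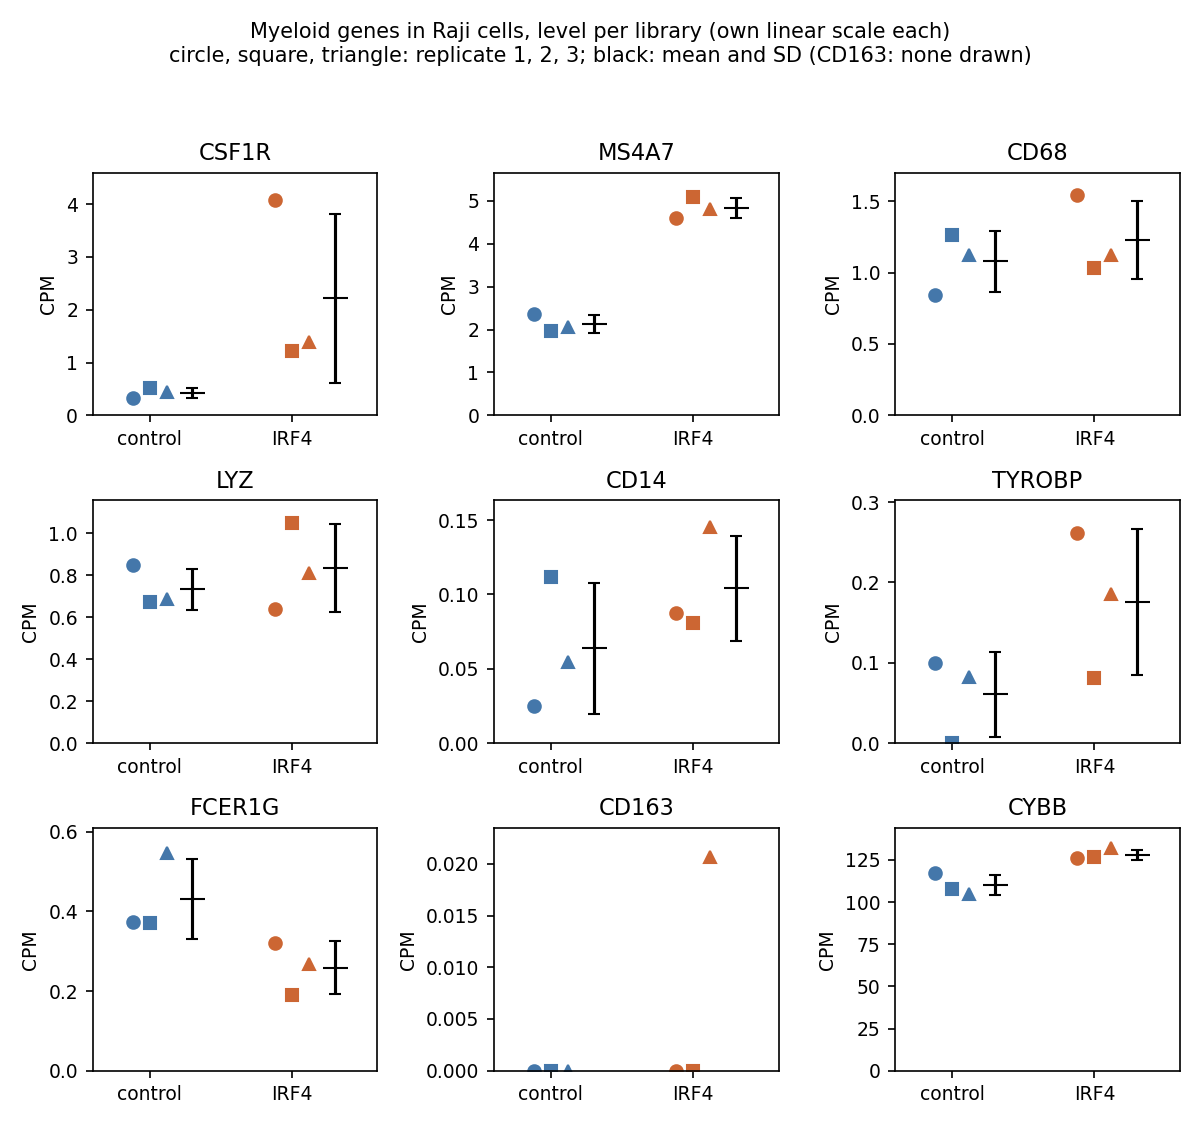
Level of 9 members in CPM (vertical axes, linear from 0, one scale per gene) in control (blue) and IRF4-overexpressing (orange) libraries, with replicates as symbols and the group mean and SD in black; MS4A6A, at 0 counts, is not drawn. MS4A7, CSF1R and CYBB are higher in every IRF4-overexpressing library than in any control, FCER1G is lower, and the single CSF1R point at 4.07 CPM is replicate 1.

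CSF1R encodes the receptor for the growth factors CSF1 and IL-34, which macrophages need to survive. It had 13, 14 and 16 counts in the control libraries and 140, 45 and 67 in the IRF4-overexpressing ones, or 0.324, 0.521 and 0.438 CPM against 4.07, 1.22 and 1.39 CPM. Every IRF4-overexpressing library lay above every control, and replicate 1 stood apart from replicates 2 and 3. The log2 fold change was 2.38 (SE 0.56), or 5.21-fold, the largest of the 6 members tested, and was not called. Without IRF4-overexpressing replicate 1 it was 1.63, or 3.09-fold, and called, but both remaining IRF4 libraries then lie on the same side of the axis. Within the sides of that axis the ratio of mean CPM was 4.02 and 8.49, each resting on a single library in 1 group. The CSF1R locus also holds RPL7P1, a pseudogene of the ribosomal protein gene RPL7. RPL7 was at 209 CPM in IRF4-overexpressing replicate 1 and at 232 to 326 CPM in the other 5 libraries. Whether reads of RPL7P1 enter the CSF1R counts was not tested. The counts do not tell the 2 starts of CSF1R apart. In a bulk culture, more cells with a transcript and more transcript per cell cannot be told apart, here and for the genes below.

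The partners of CSF1R were near 0 or did not pass the test. The ligand genes CSF1 and IL34 had at most 1 count in any library. Of 10 genes of the growth factor receptor axis, 1 was tested, and it did not pass. That gene was CSF2RB, the shared beta chain of the receptors for GM-CSF, IL-3 and IL-5, at 13.7 ± 0.926 and 17.9 ± 0.91 CPM in the control and IRF4-raised groups (± SD, n = 3 each; edgeR log2 fold change 0.39 with SE 0.10 and adjusted p = 0.12). IL3RA, the alpha chain for IL-3, had 0 counts in all controls and 4, 2 and 6 with IRF4 raised, too few for the filter. FLT3, KIT, CSF3R and CSF2RA, receptors of progenitors and granulocytes, had 0 to 3 counts in any library.

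MS4A7 belongs to the family of 4-pass membrane proteins of which the B cell antigen CD20, encoded by MS4A1, is the best known, and is used as a macrophage marker. It had 95, 53 and 75 counts in control and 158, 188 and 232 in IRF4-overexpressing libraries, or 2.37, 1.97 and 2.05 CPM against 4.59, 5.08 and 4.81 CPM. The groups were wide apart against a spread of 0.208 and 0.243 CPM (SD, n = 3 each). The log2 fold change was 1.17 (SE 0.13), and 1.12 to 1.25 without single libraries. On the sides of the axis, the ratio of mean CPM was 2.09 and 2.28.

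Most of its relatives were near 0. Of 14 MS4A genes in the table, taken in chromosome order, MS4A3, MS4A2, MS4A6A, MS4A4A and MS4A6E precede MS4A7 and together held 1 count over all 6 libraries. MS4A6A, the other macrophage gene of the set, had 0 counts in every library, which allows up to 0.0134 CPM at 3 counts over the 6. MS4A14 and MS4A5, which follow MS4A7, summed to 16 and 3 counts in control and 32 and 12 with IRF4 raised. MS4A1, next on the chromosome, was at 719 ± 31.9 and 861 ± 30.2 CPM (± SD, n = 3 each; edgeR log2 fold change 0.26 with SE 0.08 and adjusted p = 0.174) and did not pass. Per kilobase of gene width, MS4A7 reached 1.42 CPM per kb with IRF4 raised, against 175 CPM per kb of MS4A1 in control cells.

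TYROBP and FCER1G encode the ITAM adaptors DAP12 and the Fc receptor gamma chain. Each spans the membrane, pairs with receptors that have no signalling tail of their own, and recruits the kinase SYK. TYROBP had 4, 0 and 3 counts in control and 9, 3 and 9 in IRF4-overexpressing libraries. The groups overlapped, and the ratio of summed counts, scaled for depth, was 2.6 with an exact 95% counting interval of 1.06 to 7.23. FCER1G had 15, 10 and 20 counts in control and 11, 7 and 13 with IRF4 raised, or 0.373, 0.372 and 0.547 CPM against 0.32, 0.189 and 0.269 CPM. It was the only member with every IRF4-overexpressing library below every control, as 11.9% of all tested genes were. Its log2 fold change was -0.73 (SE 0.32), and it was not called. At 31 to 45 counts per group, counting error alone gives a ratio of 0.365 to 0.963 around 0.596.

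Of 31 receptor partners and kinases, 12 had 0 counts in all libraries, 4 were tested, and 0 passed (edgeR; 1 higher and 0 lower at an unadjusted p under 0.05, 0 by DESeq2 or limma-voom). SYK, which also serves the B cell receptor, was at 276 ± 5.7 and 267 ± 13.4 CPM (± SD, n = 3 each; edgeR log2 fold change -0.05 with SE 0.08 and adjusted p = 0.714; 0.05 with library sizes alone). HCST, the adaptor DAP10 and a neighbour of TYROBP, was at 2.27 ± 0.132 and 2.74 ± 0.458 CPM (± SD, n = 3 each; edgeR log2 fold change 0.28 with SE 0.17 and adjusted p = 0.361). The receptor genes CLEC5A, CLEC4E, FCGR1A and FCGR3A had 0 counts throughout, and TREM2 and SIRPB1 had 1 count each.

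CD14 and CD163 are surface receptors of monocytes and macrophages, the former for lipopolysaccharide and the latter for haptoglobin bound to haemoglobin. CD14 had 1, 3 and 2 counts in control and 3, 3 and 7 in IRF4-overexpressing libraries. The groups overlapped, and the depth-scaled ratio of 1.88 has a counting interval of 0.665 to 6.02. A difference was not detectable at this depth. CD14 also overlaps TMCO6 in the RefSeq annotation, a gene at 17.5 and 20.0 CPM in the 2 groups, and the strand setting of the counting is not given in the sources used here. CD163 had 0 counts in 5 libraries and 1 count in IRF4-overexpressing replicate 3, both groups under the floor of 3 counts.

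Of 12 genes of the CD14 receptor complex and its relatives, 9 were tested and 0 passed (edgeR; 0 higher and 3 lower at an unadjusted p under 0.05, 0 and 2 by DESeq2, 0 by limma-voom). Their median log2 fold change was -0.30. CD180, a B cell relative of TLR4 that restrains its signals, was at 47.3 ± 3.12 and 33.9 ± 3.81 CPM (± SD, n = 3 each; edgeR log2 fold change -0.48 with SE 0.11 and adjusted p = 0.083). Its secreted partner LY86 was at 14.3 ± 1.2 and 14.9 ± 2.03 CPM (± SD, n = 3 each; edgeR log2 fold change 0.05 with SE 0.14 and adjusted p = 0.821; -0.04 with a term for the library axis). TLR4, the receptor that CD14 serves, was at 7.17, 8.37 and 6.81 CPM in control and 4.59, 5.48 and 5.45 CPM with IRF4 raised, without overlap, and did not pass (edgeR adjusted p = 0.114). Of 16 scavenger and uptake genes around CD163, 3 were tested and 0 passed by edgeR, DESeq2 or limma-voom, also at an unadjusted p under 0.05. MRC1, CD163L1, CLEC10A and VSIG4 had 0 counts. The most abundant per kilobase, TIMD4 and MSR1, had log2 fold changes of 0.74 and 0.19 (SE 0.32 and 0.19, edgeR adjusted p = 0.259 and 0.538).

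CD68, a glycoprotein of late endosomes and lysosomes, and LYZ, the secreted lysozyme, are the classical content markers of phagocytes. CD68 had 34, 34 and 41 counts in control and 53, 38 and 54 in IRF4-overexpressing libraries, or 0.846, 1.26 and 1.12 CPM against 1.54, 1.03 and 1.12 CPM. LYZ had 34, 18 and 25 against 22, 39 and 39 counts, or 0.846, 0.67 and 0.684 CPM against 0.639, 1.05 and 0.808 CPM. For both genes the groups overlapped, and CD68 shares its locus with MPDU1-AS1. The log2 fold changes were 0.20 (SE 0.24) for CD68 and 0.18 (SE 0.25) for LYZ. CD68 and CYBB share the composite letters at the same distance from the start. Per kilobase, CYBB stood at 25.4 ± 1.37 and CD68 at 0.581 ± 0.115 CPM per kb in control cells (SD, n = 3 each). Whether these letters bear on the level of either gene was not tested.

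Lysosomal genes were broadly expressed, and 2 of 21 tested were called higher, beside 2.98% of all 12079 genes tested. LAMP3, a lysosomal membrane protein of maturing dendritic cells and a relative of CD68, had 8, 5 and 10 counts in control and 34, 26 and 60 with IRF4 raised (log2 fold change 2.14, SE 0.32, edgeR adjusted p = 0.0182). It passed the filter on low counts only through the IRF4-overexpressing libraries, where it is high, so its call supports nothing. CTSH, a cathepsin, rose from 104, 104 and 97.0 CPM to 134, 170 and 176 CPM (log2 fold change 0.65, SE 0.12, edgeR adjusted p = 0.0421). In both, all 3 IRF4-overexpressing libraries lay above all controls, as in 13.5% of all tested genes. LAMP3 lost its call without any single control or without IRF4-overexpressing replicate 3 (log2 fold change 1.92 to 2.32), and CTSH without any library other than IRF4-overexpressing replicate 1 (0.58 to 0.66). No lysosomal gene was called lower (edgeR, DESeq2 and limma-voom; 7 higher and 0 lower at an unadjusted p under 0.05), and the median log2 fold change of the list was 0.16. CTSL, a cathepsin abundant in macrophages, had 0 counts in all 6 libraries.

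Of 18 granule and antimicrobial genes in the table, 10 had 0 counts, among them MPO, ELANE, LCN2 and S100A9. The 1 that was tested, CAMP, encodes the antimicrobial peptide cathelicidin and was called higher, as 2.98% of all tested genes were. It had 34, 17 and 27 counts in control and 49, 97 and 104 with IRF4 raised (log2 fold change 1.47, SE 0.27, edgeR adjusted p = 0.0373). It lost its call without any library other than IRF4-overexpressing replicate 1 (log2 fold change 1.27 to 1.57), and with limma-voom (adjusted p = 0.0564).

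CYBB encodes gp91phox, the electron-carrying subunit of the NADPH oxidase of phagocytes and B cells. It had 4681, 2892 and 3852 counts in control and 4336, 4719 and 6349 in IRF4-overexpressing libraries, or 117, 108 and 105 CPM against 126, 127 and 132 CPM. The groups did not overlap, and the spread was small. The log2 fold change was 0.22 (SE 0.09), or 1.17-fold, and was not called. On the sides of the axis, the ratio of mean CPM was 1.11 and 1.18. With 3 of 6 tested members above their controls in every library and 1 below, the corresponding shares of all tested genes were 13.5% and 11.9%.

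The oxidase is an assembly, and the other parts described here did not move as one. None of these was called by edgeR. The membrane partner of CYBB, CYBA, was at 51.2, 64.5 and 58.2 CPM against 57.5, 88.8 and 87.9 CPM, with overlap. NCF1, the organiser p47phox, was at 9.98, 11.7 and 10.8 CPM against 8.05, 6.67 and 7.35 CPM, lower in every library but not called (log2 fold change -0.56, SE 0.12, edgeR adjusted p = 0.0709). NCF1 has near-identical pseudogenes, so its value is uncertain. NCF4, the p40phox subunit, was at 2.63 ± 0.724 and 3.6 ± 0.765 CPM (SD, n = 3 each), with overlap. RAC1, a small GTPase of the active complex, was at 336, 349 and 394 CPM against 322, 166 and 163 CPM, lower in every library and far lower in replicates 2 and 3 (log2 fold change -0.73, SE 0.27, edgeR adjusted p = 0.215). RAC2, its blood cell relative, and HVCN1, a proton channel that sustains the oxidase, did not pass, nor did CYBC1, a chaperone of the CYBB product. NOX4, DUOX1, DUOX2, NOX1 and NOX3, the oxidases of other tissues, had 0 to 2 counts in any library.

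**Figure D2:**
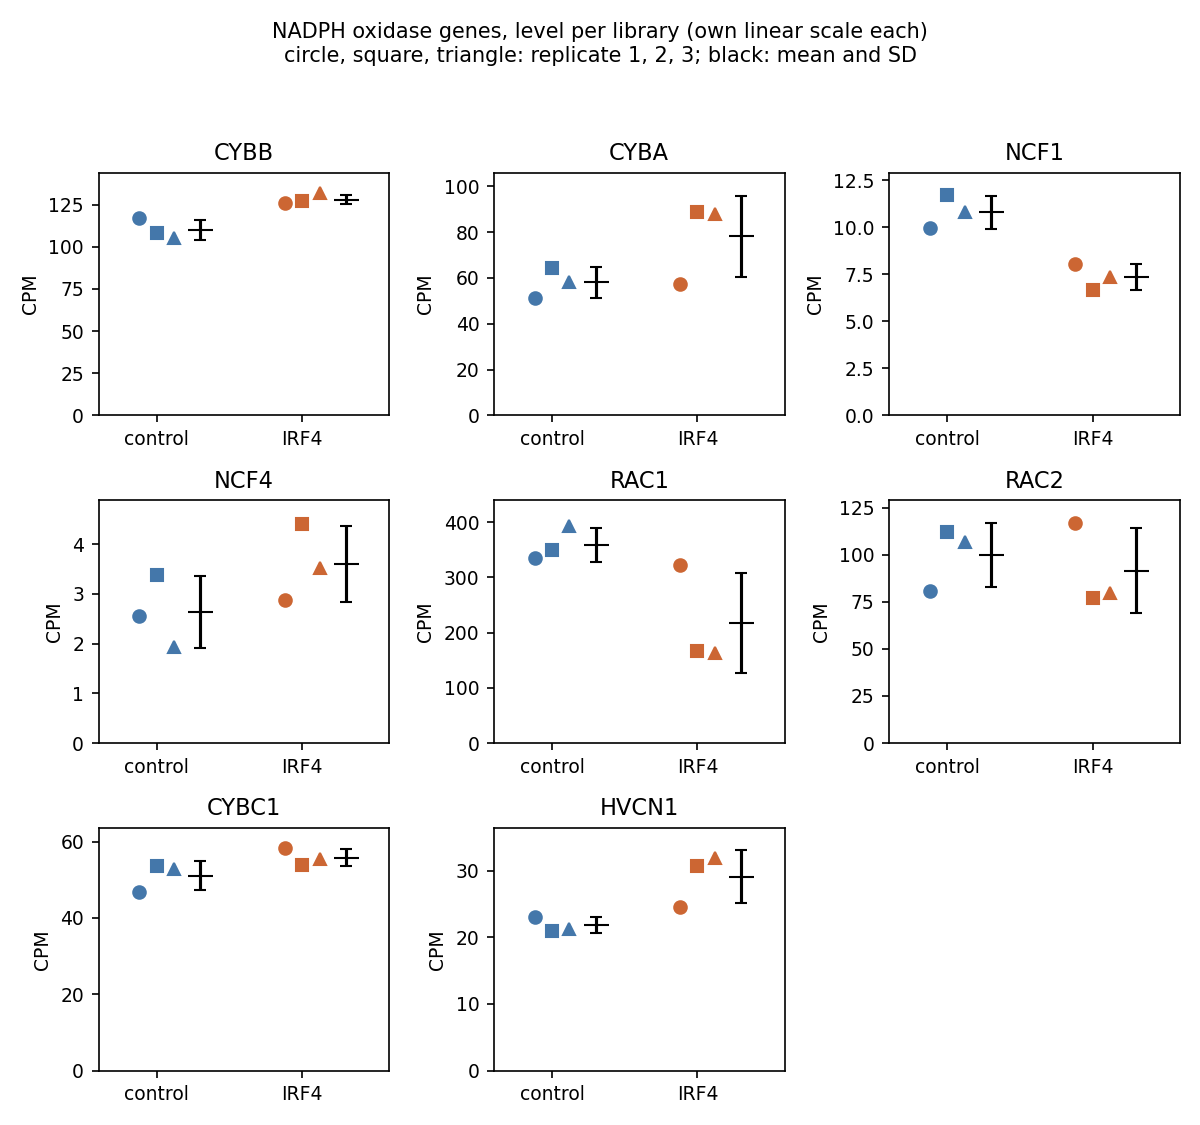
Level in CPM (vertical axes, linear from 0, one scale per gene) of CYBB and 7 other NADPH oxidase genes in control (blue) and IRF4-overexpressing (orange) libraries, with replicates as symbols and the mean and SD in black. NCF1 lies below its controls at 6.67 to 8.05 CPM, and CYBA and RAC1 split replicate 1 from replicates 2 and 3.

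Of 21 myeloid transcription factor genes, 9 were tested and 0 passed (edgeR; 2 higher and 0 lower at an unadjusted p under 0.05, 1 higher by DESeq2, 0 by limma-voom), with a median log2 fold change of -0.19. CEBPA, KLF4, MAF, MITF and HHEX had 0 counts in all libraries, and CEBPD and PPARG at most 1 count in any. IRF8 was at 166 ± 2.61 and 200 ± 14.0 CPM (± SD, n = 3 each; edgeR log2 fold change 0.27 with SE 0.09 and adjusted p = 0.173). CEBPG was at 97.2 ± 6.13 and 84.0 ± 3.35 CPM (± SD, n = 3 each; edgeR log2 fold change -0.21 with SE 0.09 and adjusted p = 0.263). SPI1, which encodes PU.1, was at 17.7, 27.7 and 28.9 CPM in control and 21.9, 11.5 and 11.1 CPM with IRF4 raised. The groups overlapped, and it did not pass (log2 fold change -0.74, SE 0.31, edgeR adjusted p = 0.258). On each side of the library axis the IRF4-overexpressing libraries had the lower values. TFEC went the other way, at 36.2, 27.1 and 26.7 against 40.2, 58.9 and 60.1 CPM (log2 fold change 0.82, SE 0.20, edgeR adjusted p = 0.0859). Its groups did not overlap, as in 13.5% of all tested genes (higher). Of the 9 tested, 3 had a positive and 6 a negative log2 fold change.

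Among 24 further myeloid surface and marker genes, 11 were tested, 2 rose and 0 fell (edgeR; 6 higher and 1 lower at an unadjusted p under 0.05, 3 and 0 by DESeq2, 2 and 0 by limma-voom). ITGAM, the integrin chain CD11b, rose from 29, 17 and 22 counts to 92, 83 and 122 (log2 fold change 1.92, SE 0.17, edgeR adjusted p = 0.00256). Its ratio was 3.3 and 4.33 within the sides of the library axis, and it was called in all 6 fits that left out a library. LST1, a leukocyte gene of the MHC region, rose from 58, 43 and 46 counts to 98, 148 and 193 (log2 fold change 1.34, SE 0.19, edgeR adjusted p = 0.0155). It lost its call without any library other than IRF4-overexpressing replicate 1 (1.25 to 1.41). LST1 overlaps NCR3, so reads of the 2 cannot be told apart without the strand setting. ITGAX, the CD11c chain that pairs with the same beta subunit, had 4, 2 and 4 counts against 27, 10 and 13, without overlap, and did not pass (edgeR adjusted p = 0.147). ADGRE1, the human F4/80 gene, had 9, 3 and 2 against 17, 22 and 31 counts, also without overlap (edgeR adjusted p = 0.0559). ITGAX and ADGRE1 passed the filter on low counts only through the IRF4-overexpressing libraries, where they are high. CLEC7A went the other way without overlap, at 12.6, 9.93 and 9.87 against 5.12, 7.35 and 8.45 CPM (edgeR adjusted p = 0.179). Of the 11 tested, 9 had a positive and 2 a negative log2 fold change. Groups without overlap made up 13.5% (higher) and 11.9% (lower) of all tested genes. CCR2, SIRPA, CLEC12A and CD300A had 0 counts throughout. Over all 10 lists by role, 6 of 68 tested genes rose and 0 fell, against 2.98% and 0.182% of all genes (21 higher and 6 lower at an unadjusted p under 0.05, 10 and 3 by DESeq2, 5 and 0 by limma-voom). Their median log2 fold change was 0.20, beside 0.01 for all genes tested. LAMP3, 1 of the 6, passed the filter on low counts only through the IRF4-overexpressing libraries. The share of all genes called higher changed with level, and the lists were not matched to it. It was 8.24% at 0.3 to 1 CPM, the class of LAMP3, and 7.87% at 1 to 3 CPM, that of CAMP, ITGAM and LST1. Above 100 CPM, the class of CTSH, it was 0.493%.

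**Figure D3:**
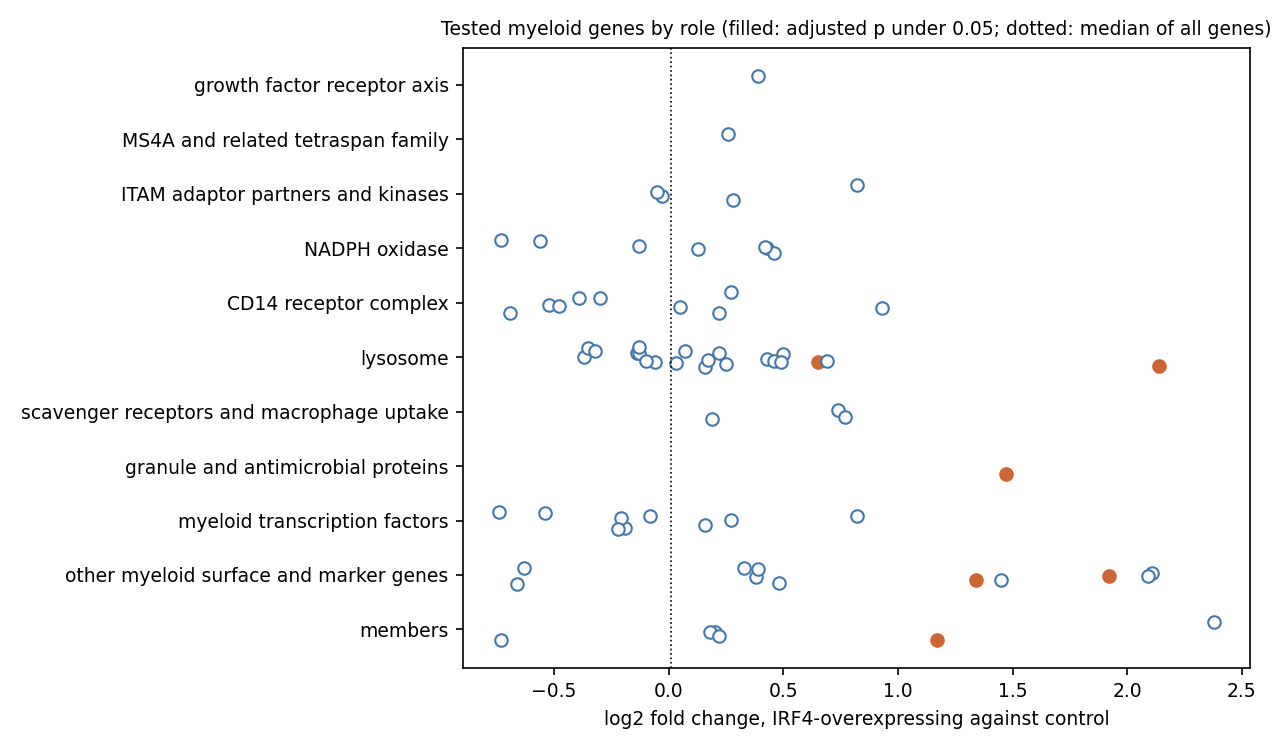
Log2 fold change of IRF4-overexpressing against control (horizontal axis) for the tested genes of each list by role that are reported here and for the 6 tested members (rows), with genes called by edgeR filled; vertical scatter within a row has no meaning. The called genes drawn outside the members lie between 0.65 and 2.14, and the dotted line is the median of all genes, 0.01.

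Weak genes as a class were higher with IRF4 raised, and most members belong to that class. Genes of up to 0.1 CPM, the class of CD14 and CD163, summed to 1.77 times their control level, and 69.4% of these 4357 genes had a higher mean. The ratio was 1.52 for genes of 0.1 to 0.3 CPM, which hold TYROBP, and 1.31 for those of 0.3 to 1 CPM, which hold LYZ and FCER1G. It was 1.22 for genes of 1 to 3 CPM, with CSF1R and CD68, 1.06 for 3 to 10 CPM, with MS4A7, and 0.924 above 100 CPM, with CYBB. In the class of CSF1R and CD68 the median log2 fold change was 0.24 and 7.87% of genes were called higher, and in that of MS4A7 0.09 and 5.25%. CD14, LYZ and CD68 had ratios near those of their classes, and the interval of TYROBP spans that of its class. CSF1R, MS4A7 and CYBB lay above their classes and FCER1G below. The part of this class-wide shift in the values of the members was not tested. Beside it, the summed mesenchymal markers were at 0.598 to 1.12 CPM in control and 1.67 to 4.16 CPM with IRF4 raised, and the epithelial and kidney markers at 0.0996 to 0.274 and 0.32 to 0.837 CPM.

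**Figure D4:**
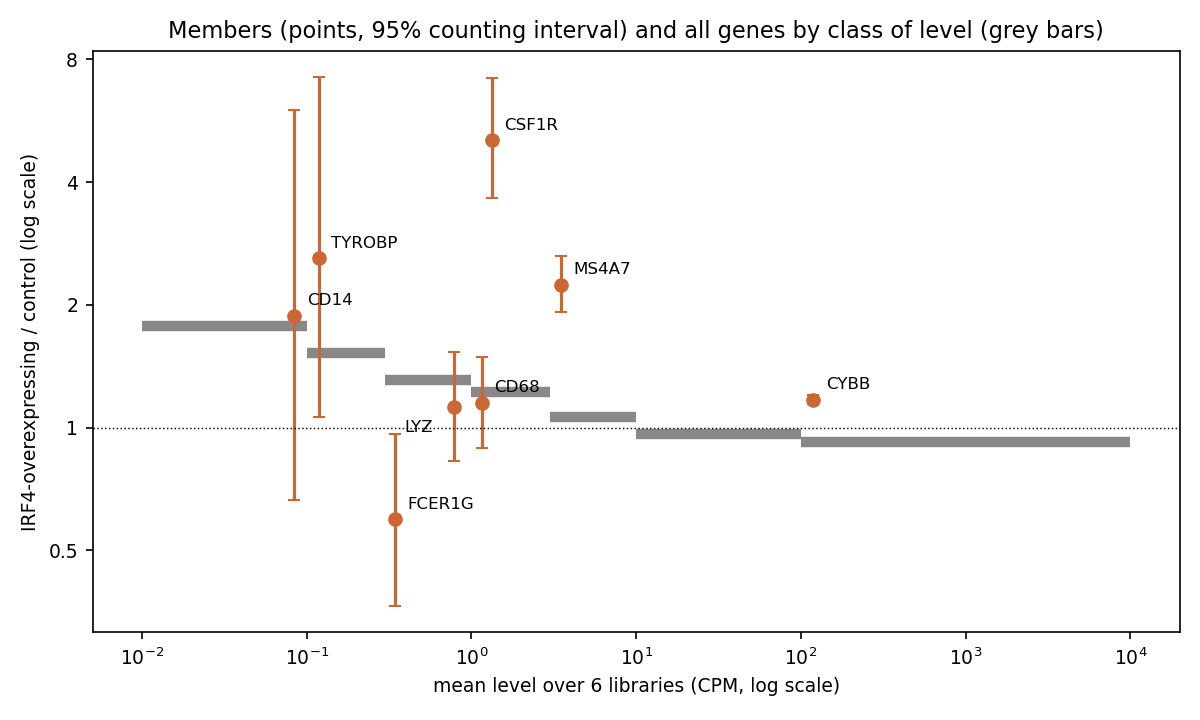
Ratio of IRF4-overexpressing to control level (vertical axis, log scale) against mean level in CPM (horizontal axis, log scale) for 8 members, with exact 95% counting intervals that cover counting error only, and for all genes summed within classes of level (grey bars, from 1.77 for the weakest to 0.924 for the most abundant). CSF1R, MS4A7 and CYBB lie above the bars of their classes, FCER1G below, and CD14, LYZ and CD68 close to them; CD163 and MS4A6A are not drawn.

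Ordered by level per kilobase in control cells, CYBB was first at 25.4 ± 1.37 CPM per kb. FCER1G, MS4A7, CD68 and LYZ followed at 0.725 ± 0.169, 0.627 ± 0.0612, 0.581 ± 0.115 and 0.484 ± 0.0648 CPM per kb (SD, n = 3 each), and neighbours in this order differed by less than the larger of their SDs. TYROBP and CSF1R, at 0.102 ± 0.09 and 0.0977 ± 0.0226 CPM per kb, did not differ beyond their spread either. CD14 had the lowest mean of these, 0.0353 ± 0.0244 CPM per kb, and differed from TYROBP by less than the SD of TYROBP. With IRF4 raised, MS4A7 was second at 1.42 ± 0.0715 CPM per kb, above CD68 at 0.662 ± 0.148, LYZ at 0.55 ± 0.137, CSF1R at 0.508 ± 0.366, FCER1G at 0.437 ± 0.111 and TYROBP at 0.298 ± 0.153 (SD, n = 3 each). The CSF1R mean rests on replicate 1, at 0.93 CPM per kb, while replicates 2 and 3 were at 0.278 and 0.317, below every CD68 and LYZ value of that group. No member came near the level of CYBB. Of 8 members with counts in both groups, 6 were higher with IRF4 raised within both sides of the library axis, 1 (FCER1G) was lower in both, and LYZ was mixed.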

How the data were processed

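Poly(A)-selected, stranded RNA-seq libraries of Raji cells, 3 control and 3 IRF4-overexpressing, were compared, per the labels' protocols. The deposited values are counts of reads per Entrez gene as the authors made them, 1 column per library per the file headers, and the whole numbers and differing totals show no scaling. A second deposited column holds another quantity, 1 width per gene in bases, used only for levels per kilobase. The submitters' processing notes list hg19 and mm9; the aligner, counter, annotation and strand setting are not given in the sources used here. Of 23459 rows, 23308 matched a symbol (RefSeq, GRCh38.p14).

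Differences were fitted in edgeR 4.0.16 under R 4.3.3, with TMM, filterByExpr, group-only design, two-sided quasi-likelihood F-test, Benjamini-Hochberg adjustment over 12079 genes, calls at an adjusted p under 0.05. CPM values use TMM-scaled library sizes. SE is the absolute log2 fold change over the root of F. Intervals are exact at 95% and, like the floor of 3 counts, cover counting error only. The 10 members and the 10 lists by role (183 of 186 genes in the table) were chosen with earlier results of these data known. Named from the lists were up to 4 called genes per direction with the smallest p, or else the 2 most abundant per kilobase; other genes were named after their values were seen. Some genes of the lists count in the totals and are not reported here. The fit was repeated with DESeq2 1.42.0 and limma-voom (limma 3.58.1), with scaling by library sizes alone or by median ratios, without a filter or with one of 1 CPM in 3 libraries, with the replicate number as a block, with a term for the library axis, and without each library.

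On simulated counts for this comparison (12079 genes) the share of changed genes recovered was 11.7% at 1.5-fold, 69.9% at 2-fold and 95.5% at 4-fold, with 7 of 129 calls false. Each gene was drawn on its own, so the simulated libraries lack the library axis that the genes share. These shares therefore need not hold for the measured libraries. Replicate pairs differed by a chi-square per gene of 6.5 to 184.7, more than sampling noise. Figures were drawn with matplotlib 3.10.9.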

Additional observations from a re-analysis of the deposited data

How the results depend on the processing

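Among the members, 1 was called higher, against 2 with DESeq2, 2 with the axis term, 0 with the replicate block and 1 to 3 without single libraries. The 3 without IRF4-overexpressing replicate 1 were MS4A7, CSF1R and CYBB; both DESeq2 and the axis term added CSF1R. LYZ reversed to -0.01 without IRF4-overexpressing replicate 2 (up to 0.31 without others), SYK to 0.05 with library sizes alone, and LY86 to -0.04 with the axis term, -0.01 without control replicate 2 and -0.03 without IRF4-overexpressing replicate 2 (up to 0.14 without others).

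Of the other myeloid genes, 6 were called higher and 0 lower, against 10 and 3 with DESeq2, 14 and 4 with the axis term, 0 higher with the replicate block, and 2 to 26 and 0 to 16 without single libraries. Leaving out IRF4-overexpressing replicate 1 gave the 26 and 16, and any other library 2 to 3 and 0. Over all genes, 360 were higher and 22 lower, against 577 and 175 with DESeq2, 709 and 389 with the axis term, 3 and 0 with the replicate block, 13 lower with library sizes alone, and 120 to 2436 and 3 to 3071 without single libraries. The axis was read from these counts, so p-values that use it are too small.

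Whether the replicate numbers pair the libraries is not stated by the labels. Deviations of same-numbered libraries correlated at -0.65, -0.22 and -0.47. Control replicate 1 was closest to IRF4-overexpressing replicate 2, and control replicates 2 and 3 to IRF4-overexpressing replicate 1. These deviations mostly follow the library axis, so they cannot decide whether same-numbered libraries were handled together. With the replicate block, MS4A7 (log2 fold change 1.18, adjusted p = 0.134), ITGAM, LAMP3, CTSH, CAMP and LST1 all lost their calls by edgeR. Counts of 0 to 20 per library limit CD14, TYROBP and FCER1G.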

Other observations

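CSF1R was not the only weak gene that was highest in IRF4-overexpressing replicate 1. ITGAX was at 0.785 CPM there and at 0.27 and 0.269 CPM in replicates 2 and 3, and COL1A1, a collagen gene, at 3.75 CPM against 1.19 and 1.68 CPM. MS4A7 and ITGAM were closer together, at 4.59 and 2.67 CPM in replicate 1 against 4.81 to 5.08 and 2.24 to 2.53 CPM in the other two. These genes were picked after their values were seen. FCGR2A and CX3CR1, an Fc receptor and a chemokine receptor of monocytes, had 0 counts in all controls and 6, 4 and 1, and 4, 1 and 5 counts with IRF4 raised.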
